A study of Mus musculus with 6 samples.

Results

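The arrays carried 886 features for transcripts that RefSeq lists under an accession starting with NR_, the prefix of transcripts that it does not regard as coding for protein. They are 886 of 55681 features other than controls, chosen by that prefix alone. Gene symbols were found for 693 genes. The study compared mice given BHPF, fluorene-9-bisphenol, a substitute for bisphenol A in plastics, with control mice given peanut oil. All were immature females of the outbred CD-1 stock, 24 days old by the labels. The BHPF group received 50 mg kg−1 of body weight once a day into the stomach for 3 days. Liver, ovary and uterus were each measured on 1 control array and 1 BHPF array, with the RNA of 3 mice mixed into 1 pool for each. No group was measured on a second array, so within a tissue the BHPF difference had no replicate check and no p value was computed for it. The 6 arrays lay on 1 slide with the control arrays at other positions than the BHPF arrays, and position and treatment cannot be told apart.

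Noncoding transcripts are of several kinds. Long noncoding RNAs (lncRNAs) are transcribed, capped and often spliced like messenger RNAs, and some act at the locus where they are made, by silencing one parental copy of a gene cluster or one X chromosome. Other noncoding genes serve as carriers, and small nucleolar RNAs (snoRNAs, which guide the modification of ribosomal RNA) or microRNAs (which repress messenger RNAs through a short seed sequence) are cut from their transcripts. Transcribed pseudogenes are copies of protein-coding genes that have lost an intact reading frame. Many lncRNAs are made in few cell types, often next to or opposite a developmental gene.

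By the biotype in RefSeq, 559 of the 886 features (63.1%) reported lncRNAs and 224 (25.3%) transcribed pseudogenes. A further 73 features on 56 accessions had no entry in the table and are not named here. The name of the set did not hold for 14 features, whose genes RefSeq calls protein-coding, such as *Bmp1*, *Ccl25*, *Prmt6* and *Zfp672*. Features of pseudogenes and of multigene families such as *Cyp2d*, *Speer* and *Vmn2r* can take up RNA of near-identical genes, so their values are uncertain as to the gene. The arrays read no strand other than that of the printed probe, and probe sequences were not used here.

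The labelled tissues were checked against lists of marker genes by the log2 of the summed level of each list, where a level is the log2 intensity of a feature minus the 75th percentile of its array. Markers of liver cells reached 8.49 in control liver and 8.42 in BHPF liver, markers of granulosa and theca cells 5.89 and 5.91 on the ovary arrays, and markers of uterus 5.10 and 5.13 on the uterus arrays. Each list was highest in its own tissue. The 10 liver markers summed to 1.17 on the control uterus array and 5.07 on the BHPF uterus array, where all 10 were above background, against 9 on the former. Albumin (*Alb*) read −0.92 and 3.36 on these arrays. The uterus counts are given below also without the features brighter in liver.

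The microRNAs carried by the host genes described below are shown first, since they are the products for which these host transcripts are known. Of the 693 genes, 13 spanned 33 microRNA genes on their own strand in RefSeq (build GRCm38.p6), with 61 mature sequences. The sequences run 5′ to 3′ with the seed, bases 2 to 8, in capitals. *Mir22hg* carries miR-22, *Mir17hg* as modelled there carries miR-92a-1, *Mir100hg* carries miR-100, let-7a-2 and miR-125b-1, *Dleu2* carries miR-15a and miR-16-1, and *Dnm3os* carries miR-199a-2 and miR-214.
miR-22-3p: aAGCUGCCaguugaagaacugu
miR-92a-3p: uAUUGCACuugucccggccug
miR-100-5p: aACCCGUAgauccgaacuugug
miR-125b-5p: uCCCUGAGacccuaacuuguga
miR-15a-5p: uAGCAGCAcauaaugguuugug
miR-16-5p: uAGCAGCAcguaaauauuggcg
miR-199a-3p: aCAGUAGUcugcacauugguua
miR-214-3p: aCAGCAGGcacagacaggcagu
The miR-15a-5p and miR-16-5p of *Dleu2* share the seed AGCAGCA. *D7Ertd143e* spanned 6 genes of the miR-290 cluster, a cluster known from early embryos and embryonic stem cells. Its miR-291a-3p, miR-294-3p and miR-295-3p share the seed AAGUGCU.
miR-291a-3p: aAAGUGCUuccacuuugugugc
miR-294-3p: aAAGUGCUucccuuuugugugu
miR-295-3p: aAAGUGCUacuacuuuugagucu

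For the lncRNA with a promoter in the table and the largest excess in each tissue, 300 bases around the start are shown, 250 before it and 50 after it, from RefSeq (build GRCm38.p6). They stand for the tissue differences described below. Capitals mark matches on either strand to the motifs searched. They were TATAAA (the TATA box), CCAAT (the CCAAT box), AGGTCA (a half-site of nuclear receptors), CACGTG (an E box), GTTAAT (part of the site of the liver factor HNF1) and GCGTG (the core of the dioxin response element). No motif contains another. *Gm10768* is the liver gene (chr19:43838553-43838852, plus strand), *C86187* the ovary gene (chr7:46975862-46976161, minus strand) and *Hoxa11os* the uterus gene (chr6:52244993-52245292, plus strand).
Gm10768: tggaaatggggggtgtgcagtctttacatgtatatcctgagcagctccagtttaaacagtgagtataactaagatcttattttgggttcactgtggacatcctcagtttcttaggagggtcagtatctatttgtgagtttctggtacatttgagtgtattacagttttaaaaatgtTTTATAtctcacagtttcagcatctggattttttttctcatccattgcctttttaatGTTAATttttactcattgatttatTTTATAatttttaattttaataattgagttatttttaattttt
C86187: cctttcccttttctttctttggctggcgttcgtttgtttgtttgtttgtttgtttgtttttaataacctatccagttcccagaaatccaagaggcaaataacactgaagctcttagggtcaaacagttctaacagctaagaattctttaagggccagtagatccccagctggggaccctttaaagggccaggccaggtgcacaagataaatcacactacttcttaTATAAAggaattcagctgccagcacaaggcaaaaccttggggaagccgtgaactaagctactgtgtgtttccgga
Hoxa11os: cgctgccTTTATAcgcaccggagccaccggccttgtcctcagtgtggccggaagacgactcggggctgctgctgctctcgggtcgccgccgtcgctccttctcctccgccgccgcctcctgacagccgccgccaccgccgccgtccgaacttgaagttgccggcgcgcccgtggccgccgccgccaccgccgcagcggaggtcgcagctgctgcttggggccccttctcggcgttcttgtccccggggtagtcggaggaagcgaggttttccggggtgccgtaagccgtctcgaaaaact
TATAAA or its reverse complement was in all 3 windows, and GTTAAT was in that of *Gm10768* only. TATAAA was in 13.6% of all 32851 promoters in the table and GTTAAT in 7.10%. The window of *Gm10768* had 30% G and C and no CpG, and that of *Hoxa11os* had 70.3% and 41 CpG. A match is a description of the letters and not evidence of a factor.

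Noncoding features were above background less often than coding ones in every tissue. Between 54.3% and 69.4% of the NR_ features were well above background on an array by the scanner software, against 71.8% to 82.6% of the 26430 features with an NM_ (messenger RNA) accession. The order of the arrays was the same for both kinds, from the BHPF liver array to the control ovary array. In each tissue the BHPF array had fewer NR_ features well above background than the control array, 481 against 496 in liver, 573 against 615 in ovary and 520 against 554 in uterus. The same held over all features, with 61.3% against 63.9%, 69.3% against 74.5% and 64.7% against 68.9%.

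**Figure D1:**
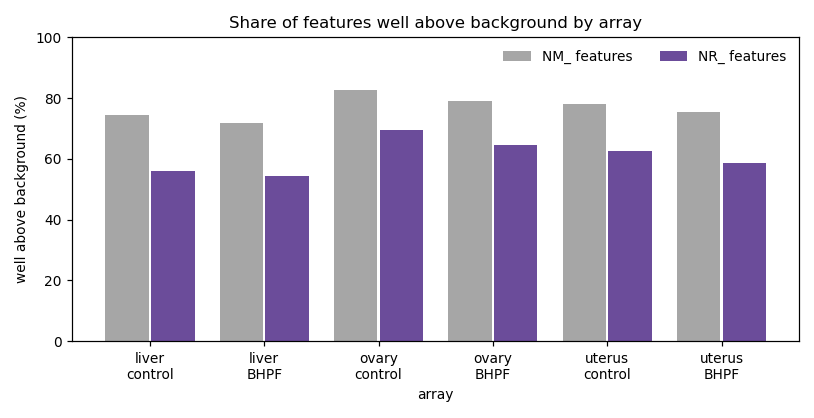
The vertical axis gives the percentage of features well above background on each of the 6 arrays, with NM_ features in grey and NR_ features in purple. The NR_ bars lie between 54.3% and 69.4% and below the NM_ bars on every array.

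Of the 886 features, 468 were well above background in all 3 tissues on at least 1 array, 97 in 2 tissues, and 215 (24.3%) in none. The corresponding share in none was 13.3% among NM_ features. The ovary had the most features of its own, with 63 seen there only, against 24 in uterus and 19 in liver. Among NM_ features 1120 were seen in ovary only, 350 in uterus only and 440 in liver only. Seen on both arrays of a tissue and on none of the other 4 arrays were 45 features in ovary, 9 in uterus and 9 in liver, against 685, 182 and 202 NM_ features. Pseudogenes were seen in all 3 tissues more often (60.7%) than lncRNAs (47.4%), and no test was made of that difference.

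Differences between tissues were tested on all 6 arrays with limma, in a model with tissue and treatment as additive terms and 2 residual degrees of freedom. A feature was called higher in a tissue when it exceeded both other tissues at least 2-fold with a Benjamini-Hochberg adjusted p below 0.05 over 43892 features. The spread in this test is the disagreement of the tissues in the BHPF difference, since no group had a second pool. Of 664 NR_ features tested, 66 were higher in liver, 45 in ovary and 45 in uterus. The percentages were 9.94%, 6.78% and 6.78%, against a background over all features of 10.9%, 5.61% and 5.72%. The ovary count fell to 29 when either the control or the BHPF uterus array was left out. The uterus count fell to 20 without the control ovary array, to 16 without the BHPF ovary array and to 26 without the control uterus array. Levels of different features are not compared with each other, since probes bind unequally.

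In liver the largest excess was that of *Cyp2d37-ps*, a pseudogene of the cytochrome P450 family 2D, whose active members oxidize drugs and steroids. It read 2.87 in control liver and 3.05 in BHPF liver, and was not well above background on the other 4 arrays, with readings between −6.88 and −4.90. It exceeded both other tissues by at least 7.95 (log2) in each treatment. The fitted liver minus uterus difference, with dim values set to the lowest level above background, was 8.31 ± 0.22 (log2, limma SE, adjusted p = 0.0002). With all 4 other arrays dim, this difference is a lower bound and its SE rests partly on set values. *Cyp2d13*, of the same family, read 2.68 and 2.89 in liver, −4.46 and −4.19 in ovary and −3.56 and −3.13 in uterus. Both features were chosen for their excess in liver, so the gap between the liver arrays and the other 4 follows largely from that choice. The lncRNA *Gm10768* read 2.83 and 2.67 in liver, −4.99 and −5.29 in ovary and −4.88 and −4.10 in uterus, an excess of 7.24 ± 0.30 over uterus (limma, adjusted p = 0.0002). The others of the 5 largest were *4931408D14Rik* and *C730027H18Rik*, with an excess of at least 6.19 and 6.02 over the higher of the other tissues in both treatments.

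*Hnf4aos*, transcribed opposite *Hnf4a*, the gene of a master regulator of liver cells, read −0.74 and −0.68 in liver and −3.96 and −3.88 in ovary. It was not well above background in uterus. Its excess over ovary was 3.21 ± 0.22 (limma, adjusted p = 0.0005). *Mir22hg*, the host of miR-22 shown above, was the one of the 10 microRNA host genes called higher in liver, with 1.94 and 2.0 there, 0.60 and 0.55 in ovary and 0.09 and −0.56 in uterus. *D7Ertd143e* had 2 features that differed in their pattern. One read −3.39 and −3.20 in liver and was not well above background elsewhere, and the other lay between −1.47 and −0.74 on all 6 arrays. Only the first was called. *Serpina4-ps1*, a pseudogene of a serine protease inhibitor gene, read 3.99 and 3.78 in liver, −4.28 and −5.09 in ovary and −5.81 (not well above background) and −1.46 in uterus.

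In ovary the largest excess was that of the lncRNA *C86187*, with 2.0 in control ovary and 1.92 in BHPF ovary. On the other 4 arrays it was not well above background and read between −7.67 and −5.57. It exceeded both other tissues by at least 6.83 (log2) in each treatment, with a fitted ovary minus uterus difference of 7.39 ± 0.25 (limma, dim values at the floor, adjusted p = 0.0005). This difference too is a lower bound, with an SE that rests partly on set values. The lncRNAs *Gm9961* (1.1 and 0.95), *Gm7056* (0.77 and 0.71) and *AU015836* (0.54 and 0.40 for its first feature) followed, and none of them was well above background in liver or uterus at these features. *AU015836* had 3 features, all called higher in ovary. *Pou5f1-rs4*, a pseudogene of the pluripotency factor gene *Pou5f1*, which is also active in oocytes, read −0.01 and 0.09 in ovary and was not well above background elsewhere. These 5 genes differed between the control and BHPF ovary arrays by 0.14 or less at the named features. Markers of oocytes summed to 4.90 and 4.92 on the ovary arrays and to between −2.93 and −0.52 on the other 4.

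Members of the *Speer* family, a rodent family of multiple copies known from testis, were also among the ovary features. *Speer8-ps1* read 0.81 and 1.03 in ovary, −5.05 and −3.09 in liver and −3.15 and −3.19 in uterus. *Crnde*, an lncRNA first described in colorectal tumours, read −1.24 and −1.16 in ovary and −4.31 and −4.34 in uterus, and was not well above background in liver. Its excess over uterus was 3.12 ± 0.23 (limma, adjusted p = 0.0016). *Foxl2os* lies opposite *Foxl2*, the gene of a factor that maintains granulosa cells. Its first feature read −1.87 and −1.86 in ovary and −3.01 and −2.92 in uterus, and was called. Its second read −0.16 and −0.23 in ovary, −1.25 and −1.13 in uterus and −3.43 and −3.09 in liver, and its excess over uterus, 0.998 ± 0.17, fell short of 2-fold and was not called.

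In uterus the largest excess was that of *Hoxa11os*, transcribed opposite *Hoxa11*, a homeobox gene needed for the development of the uterus. It read 2.61 in control uterus and 2.82 in BHPF uterus, −4.82 and −4.49 in ovary and −4.37 and −3.40 in liver. Ovary minus uterus was −7.37 ± 0.23 and liver minus uterus −6.60 ± 0.23 (limma, adjusted p = 0.0005 and 0.0002). *Hoxa11* itself read 2.17 and 2.16 in uterus and was not well above background on the other 4 arrays. *Emx2os*, opposite the homeobox gene *Emx2* of the urogenital tract, had 2 features, which read −1.97 and −1.77 and −3.62 and −3.15 in uterus. Both were called, with ovary minus uterus of −2.38 ± 0.15 for the first (limma, adjusted p = 0.0012). *Dlx6os1* and *Dlx6os2*, at the *Dlx5* and *Dlx6* homeobox genes, were called as well.

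*Sprr2g*, of a family of cornified-envelope genes known to respond to oestrogen in the uterus, carries an NR_ accession here and is a transcribed pseudogene in RefSeq. It read 1.38 on the control and 0.29 on the BHPF uterus array, and otherwise was above background only on the control ovary array, at −5.09. The remaining 3 of the 5 largest were *E330013P04Rik* (1.1 and 0.94), *4930562F07Rik* (−2.06 and −1.10) and *4933400A11Rik* (−1.73 and −1.77). *Airn*, the imprinted lncRNA that silences *Igf2r* on the paternal copy, was called at both of its features. One of them read 2.11 and 2.28 in uterus, 1.02 and 1.11 in ovary and 0.65 and 0.97 in liver, with ovary minus uterus of −1.13 ± 0.15 (limma, adjusted p = 0.0073). *Mir100hg*, the host of miR-100 and miR-125b-1, read −3.01 and −2.68 in uterus and −3.83 and −3.88 in ovary, and was not well above background in liver.

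**Figure D2:**
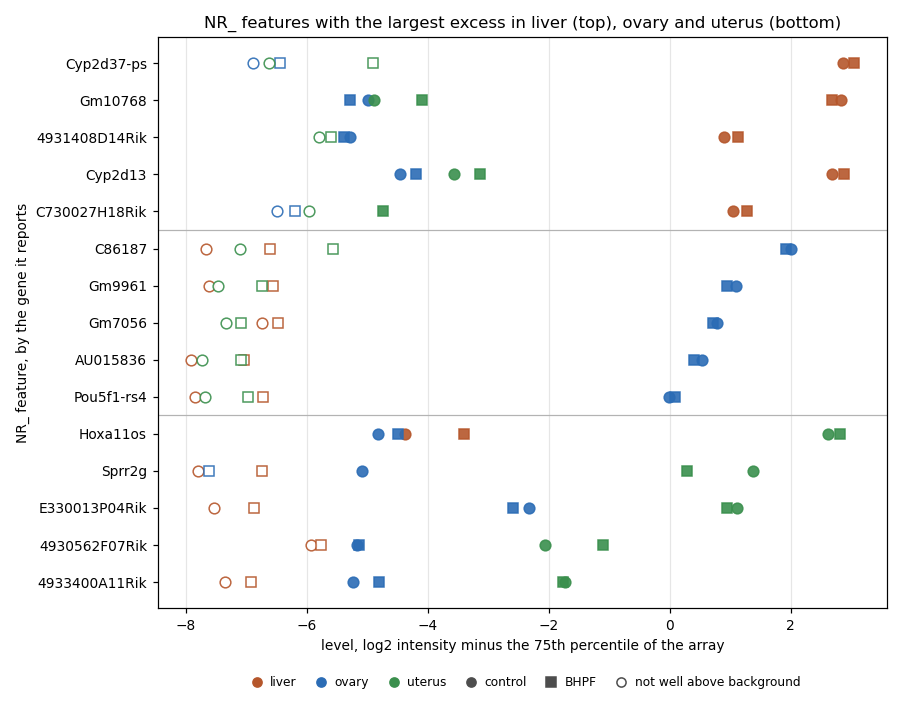
Levels of the 5 NR_ features with the largest excess in each tissue are plotted on the horizontal axis, as log2 intensity minus the 75th percentile of the array, with 1 line per gene. Circles are control and squares BHPF arrays, colours mark the tissue, and open symbols were not well above background. The symbols of the home tissue stand apart from the other 4 on every line, as for *Hoxa11os* at 2.61 and 2.82 against −3.40 or less. This follows largely from the choice of features by their excess.

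Several well-known lncRNAs were lower in liver than in both reproductive organs and were not called for a single tissue. *Meg3*, an imprinted RNA made from the maternal copy, read −0.59 and −0.98 in liver, 2.04 and 1.93 in ovary and 1.38 and 1.52 in uterus at 1 of its 3 features. Liver minus ovary was −2.77 ± 0.18 (limma, adjusted p = 0.0005). *Snhg18* read −0.93 and −1.32 in liver, 1.88 and 2.12 in ovary and 2.13 and 2.21 in uterus. *Dnm3os*, host of miR-199a-2 and miR-214, was well above background in ovary and uterus at 2 of 3 features and in liver at none.

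Of 51 genes with a symbol ending in os or as, the usual mark of an antisense or opposite-strand transcript, 49 had NM_ features for the gene they are named after. This group was formed after values had been seen. Both partners were well above background on at least 2 arrays for 32 pairs, and in 15 of these both were highest in the same tissue. How many would agree without any link was not computed. Examples of the 15 are *Hoxa11os* and *Hoxa11*, *Emx2os* and *Emx2*, *Hnf4aos* and *Hnf4a*, *Wt1os* and *Wt1*, and *Dlx6os1* and *Dlx6*. The other pairs were highest in different tissues, among them *Stk35os1* and *Stk35* (Pearson r over the 6 arrays −0.93) and *Mccc1os* and *Mccc1* (−0.85). Pearson r was above 0 for 21 of the 32. *Foxl2os* was highest in ovary, while the mean of 2 features of *Foxl2* was highest in liver, at 1.27 and 1.43 against 0.71 and 0.73 in ovary.

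With BHPF the liver held most of the differences, and nearly all were upward. A feature was evaluated when well above background on at least 1 array of the tissue, and where it was so on 1 array only the difference is a lower bound. In liver 39 of 517 NR_ features were at least 2-fold higher and 2 were lower, together 7.93% (95% Wilson confidence interval 5.90% to 10.6%, over features only). Over all features 6.02% were higher and 1.07% lower. In ovary 6 of 617 were higher and 3 lower, against 0.681% and 0.593% of all features. In uterus 11 of 566 were higher and 5 lower, against 1.88% and 0.773%. Together 7.09% of all features were changed in liver, against 7.93% of NR_ features. In ovary the total shares were 1.27% of all and 1.46% of NR_ features, and in uterus 2.65% and 2.83%. The total shares lay near the background in all 3 tissues, which was not tested. The interval above holds no variation between pools or arrays, so it cannot decide whether the liver shares differ. The liver split of 39 to 2 became 23 to 7 when the 50th percentile was subtracted instead, which lowered the liver ratio of all features by 0.31 (log2), and 20 to 6 with quantile normalization. The uterus ratios are those of the scanner files, whose direction is opposite to that of the columns headed uterus in the authors' table. The paper reports *Sprr2g* and other *Sprr2* genes as lower in BHPF uterus, which is the direction of *Sprr2g* in the scanner files. Its quantitative PCR found *Sprr2a* and *Sprr2b* lower after a longer treatment. The paper also measured selected genes by quantitative PCR to check the arrays, and reports similar results for most of them.

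The largest liver difference on 2 measured arrays was that of *Ipw*, an imprinted RNA of the region lost in Prader-Willi syndrome. It read −5.42 on the control and −2.29 on the BHPF liver array, 8.78-fold higher, and −4.31 and −4.08 in uterus, and was not well above background in ovary. *Atad3aos*, opposite a gene of a mitochondrial membrane protein, read −3.73 and −0.99 in liver (6.67-fold higher) and differed by −0.04 in ovary and 0.64 in uterus (log2). *BB014433* was 5.42-fold and *Gm3002* 5.23-fold higher, and both differed by 0.18 or less (log2) in ovary and uterus. With normexp background correction the difference of *Ipw* was 2.09 and that of *BB014433* 1.73 (log2), against 3.13 and 2.44 here. A second feature of *Gm3002* was at least 7.56-fold higher. *Speer5-ps1* was 4.68-fold higher at 1 feature (−3.55 and −1.32), and 1.95-fold and 1.43-fold higher at its other 2. *Speer8-ps1*, one of the ovary features above, was 3.90-fold higher in liver. At the feature with the largest rise, each of these genes was dim on the control liver array, at −3.55 or less.

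Among features seen on the BHPF liver array only, *B430212C06Rik* was at least 18-fold higher, from not well above background to −1.45, and *Mageb16-ps1* at least 8.11-fold. *B430212C06Rik* was not well above background on any other array. Of the 39 higher features, 17 were such bounds. Pseudogenes took 15 of the 39 and lncRNAs 21, which is 10.2% and 7.05% of those evaluated. The lower features were *5033406O09Rik*, which read −0.44 and −2.06 (3.08-fold lower), and *2310068J16Rik*, by a bound. Falls under 2-fold followed, of −0.97 for *Mir17hg*, −0.92 for *Ctcflos*, −0.90 for *4930412C18Rik* and −0.73 for *Snhg16* (log2). With the 50th percentile these 4 were past 2-fold, at −1.28, −1.24, −1.22 and −1.04. With normexp *Mir17hg* was at −1.11 and *Ctcflos* at −0.47. *Mir17hg* is the host of a microRNA cluster tied to cell proliferation, and read −0.72 and −1.69 in liver, 0.07 and −0.10 in ovary and −0.17 and −0.44 in uterus. Markers of neutrophils, a list of 8 genes, summed to 5.71 on the control and 4.55 on the BHPF liver array. The members differed unequally, with *Csf3r* at 4.28 and 4.12, *S100a8* at 3.26 and 0.54 and *S100a9* at 3.96 and 1.69. The part of neutrophils in the values of the NR_ features was not tested. In pooled tissue RNA fewer cells of a type and less RNA per cell cannot be told apart.

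In ovary the largest differences were small in number and in dim features. *Mtag2* read −5.20 and −3.45 (3.35-fold higher), *1700027A15Rik* was 2.62-fold, *Btnl5-ps* 2.17-fold and *Arhgap20os* 2.02-fold higher. A second feature of *Btnl5-ps* differed by −0.31 (log2). *1600029I14Rik* read −4.03 and −5.40, 2.59-fold lower. With normexp *Btnl5-ps* (0.76), *Arhgap20os* (0.65) and *1600029I14Rik* (−0.79) were under 2-fold. In uterus *1600029I14Rik* went from not well above background to −3.53. *Serpina4-ps1*, *Vmn2r-ps129*, *Sycp1-ps1* and *3110021A11Rik* were lower by less than 2-fold, with differences between −0.81 and −0.61.

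In uterus *Sprr2g* was 2.13-fold lower with BHPF and *Dubr*, an lncRNA known from muscle differentiation, 2.12-fold lower. *Dubr* read −2.13 and −3.22 in uterus, −3.78 and −4.14 in ovary and −4.17 and −4.53 in liver, where the differences were −0.36 and −0.37. Its uterus difference was −0.70 with normexp, under 2-fold. *Prmt6* (−0.96), *B130006D01Rik* (−0.84) and *2610507I01Rik* (−0.72) were lower by less than 2-fold. The other 3 lower features were seen on the control and not on the BHPF uterus array and have bounds, at least 9.65-fold lower for *F730043M19Rik* (−1.80 to not well above background), 2.53-fold for *Morrbid* and 2.23-fold for *Zscan4a*, whose other feature differed by −0.57 (log2). *Morrbid*, an RNA known to prolong the life of neutrophils and other myeloid cells, read −3.69 on the control uterus array and was not well above background on the other 5. The 8 neutrophil markers summed to 4.36 and 4.14 in uterus, most of it *Csf3r* (3.83 and 3.86), while *S100a8* read 0.86 and −0.66 and *S100a9* 1.60 and 0.59. The 8 adipocyte markers summed to 1.98 and 0.47, with *Adipoq* at −1.21 and −4.52 and *Cfd* at 0.22 and −2.49. The part of these cells in the lower features was not tested.

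Of the features higher in uterus, the largest was liver-bright. *Serpina4-ps1* was at least 20.3-fold higher with BHPF, and *Gm3219* read −3.36 and −1.76 (3.03-fold higher), −3.27 and −2.36 in ovary and 1.47 and 1.29 in liver. *C730027H18Rik* was at least 2.08-fold higher. These 3 were all among the 14 NR_ features that in control mice were 8-fold or more brighter in liver than in uterus, of which 8 were evaluated in uterus. Without such features 8 were higher (1.43%) and 5 lower (0.896%) of 558, against 1.05% and 0.740% of all other features and 0.685% and 0.781% of other NM_ features. The 8 included *1700061I17Rik* (at least 9.56-fold), *Redrum*, an RNA of red cell maturation (at least 6.61-fold), and *Dlx1as* (at least 4.62-fold). *1700061I17Rik* had a second feature with a bound of 0. *Pisd-ps2*, *4930562F07Rik*, *Gm10638* and *2610206C17Rik* were higher by 0.93 to 0.99 (log2), just under 2-fold.

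**Figure D3:**
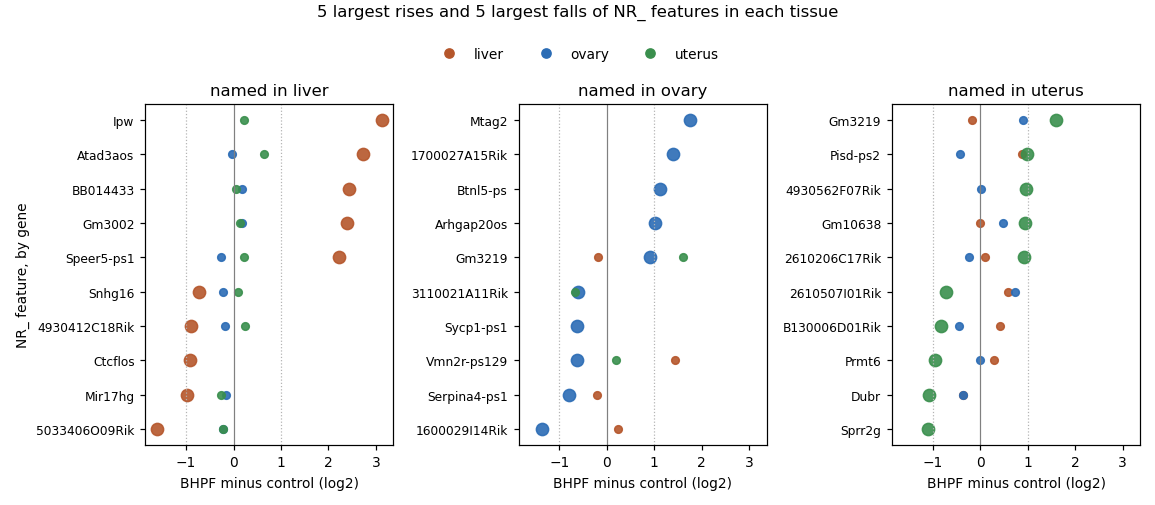
Each panel shows the 5 largest rises and falls of NR_ features in 1 tissue (large symbols) and the same features in the other tissues (small symbols), as BHPF minus control in log2 units on the horizontal axis, for features well above background on both arrays. Dotted lines mark 2-fold. *Ipw* at 3.13 and *Atad3aos* at 2.74 in liver lie beyond every feature named in ovary or uterus.

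In all, 63 NR_ features were changed at least 2-fold in some tissue, and 3 of them (4.76%) in more than 1. Over all features 251 of 3862 (6.50%) were changed in more than 1. *Dlx1as*, an antisense RNA of the homeobox gene *Dlx1*, was the one higher in 2 tissues, liver (at least 2.82-fold) and uterus (at least 4.62-fold). In ovary and on every control array it was not well above background. None was lower in 2 tissues or changed in all 3, and 2 were changed in opposite directions. Of all 3862 changed features, 82 were lower in 2 or more tissues and 74 were changed in opposite directions. In all 3 tissues 12 of them were higher and 22 lower. Among the 419 NR_ features well above background on all 6 arrays, 21 were changed in some tissue and none in 2. The count over all features seen on all 6 arrays was 125 of 1613 (7.75%) in more than 1 tissue, so few would be expected among 21. The treatment term of the limma model over the 3 pairs of arrays called 0 of 664 NR_ features and 0 of all features at adjusted p below 0.05. At an unadjusted p below 0.05 it found 85 NR_ features (12.8%), against 11.9% of all features, and the smallest adjusted p of an NR_ feature was 0.254. The 85 depend on the setting of dim values to the lowest level well above background. That level was higher on the BHPF than on the control array in liver (−4.91 and −5.62), ovary (−5.74 and −6.33) and uterus (−5.07 and −5.80). With own values in place of it, the count at an unadjusted limma p below 0.05 was 36 of 664. *Dleu2*, the host of miR-15a and miR-16-1, read −2.29, −2.48 and −1.99 on the control liver, ovary and uterus arrays and −1.68, −1.88 and −1.47 on the BHPF arrays. Its mean difference was 0.57 ± 0.11 (log2, limma SE), and it did not pass, with an adjusted p of 0.254. The paper describes uterus, ovary and liver as taken from the mice of each group, and names no separate mice per organ. The pairs of arrays may therefore be organs of the same mice and not independent replicates. A difference between the sets of mice that their organs share would then not enter the SE or p values of the treatment term.

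NR_ features were dimmer than NM_ features, so the share changed was also compared at like level. The median of the mean level of a tissue's arrays was −1.80 for NR_ and −0.10 for NM_ features in liver, −2.33 and −0.40 in ovary and −1.99 and −0.21 in uterus. NM_ features were divided into classes of 1 log2 unit of level and weighted to the class sizes of the NR_ features. In liver 7.93% of NR_ features were changed against 6.65% of NM_ features at like level, and against 4.52% of NM_ features unweighted. In ovary the shares were 1.46% and 1.79%. In uterus they were 2.83% and 4.66%. Without the features brighter in liver, an alternative chosen after seeing the data, the uterus shares were 2.33% and 2.46% at like level, and 1.47% for NM_ features unweighted. The differences of 1.28, −0.33 and −1.84 points, the last −0.13 without these features, were described and not tested. The liver difference was −0.90 points after subtraction of the 50th percentile and −0.02 with 1 value per gene. Upward changes took 7.54% of NR_ features in liver against 4.80% of NM_ features at like level, and downward changes 0.387% against 1.85%. The median ratio in liver was 0.14 (log2) for NR_ and 0.02 for NM_ features at like level, and in uterus 0.06 and 0.01. Spots of 1 probe on an array varied with an SD that amounts to 0.16 for a liver or uterus ratio and 0.15 for an ovary ratio.

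**Figure D4:**
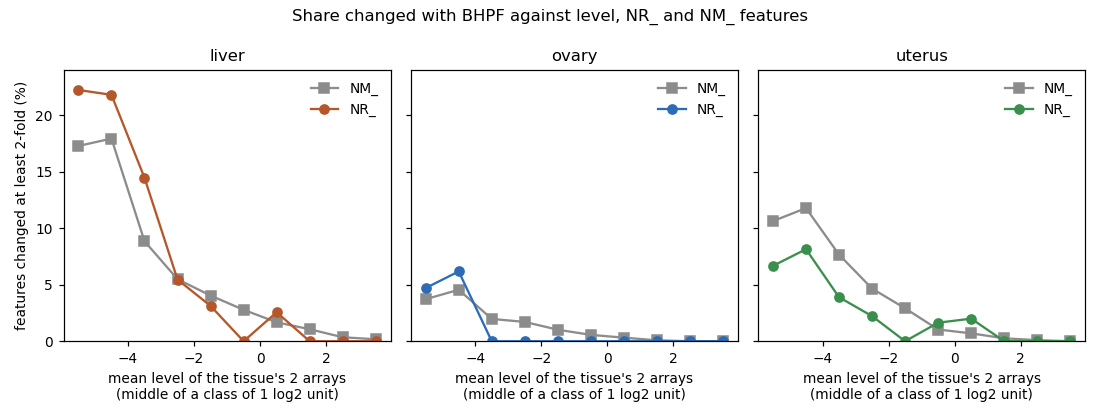
The vertical axis gives the percentage of features changed at least 2-fold with BHPF and the horizontal axis the mean level of the tissue's arrays in classes of 1 log2 unit, for NR_ (coloured circles) and NM_ features (grey squares). Shares are highest in the 2 dimmest classes of every tissue for both kinds, at 22.2% and 21.8% of NR_ and 17.3% and 17.9% of NM_ features in liver.

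Of the 24 snoRNA host genes listed, 10 matched, with 11 features, all evaluated in each tissue, and none was changed 2-fold or called higher in 1 tissue. Over all features 7.09%, 1.27% and 2.65% were changed in liver, ovary and uterus, so none of 11 is near the background. The median BHPF difference of the snoRNA host features was −0.04 in liver, −0.01 in ovary and 0.02 in uterus (log2), against 0.06, 0.00 and 0.01 over all features. The widest were in liver, where *Snhg16* was lower at both features (−0.73 and −0.58) and *Snhg17* differed by −0.58. The first *Snhg16* feature was past 2-fold with the 50th percentile (−1.04) and at −0.40 with normexp. *Snhg6* read 3.62 and 3.52 in liver, 2.83 and 2.97 in ovary and 3.02 and 3.04 in uterus, and *Snhg12*, *Snhg3*, *Snhg1* and *Dancr* differed by 0.37 or less in every tissue. Of 10 promoters of these hosts in the table, 4 began with 5 pyrimidines (CTCTC for *Snhg7*, TTTCT for *Snhg12*, TTTCC for *Snhg17* and TCCTC for *Snhg18*), against 4.44% of all promoters. Such a start is known from genes of the translation machinery. GCGTG, which holds a CpG, was in 9 of the 10, against 32.4% of all. The median number of CpG was 19 in these promoters and 7 in all promoters. The 10 promoters belong to 9 genes, and these differences were not tested.

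The other lists held few features, so their counts of changes are small. In liver 1 of 7 microRNA host, 1 of 10 imprinted, 1 of 5 X-inactivation centre and 1 of 6 developmental features were changed. Of nuclear and housekeeping features 0 of 14 were changed there, against 7.09% of all features. Counts this small do not set a list apart from the background in liver. Of the 10 microRNA host genes matched, *Ftx* alone was changed, 1.06 higher in liver at 1 feature and 0.79 at the other, and its levels were low, −5.56 and −4.50 and −4.62 and −3.83. *Ftx* lies at the X-inactivation centre. *Xist*, the RNA that coats the inactive X chromosome, differed by −0.19 in liver, −0.02 in ovary and 0.23 in uterus at the first of its 2 features and by 0.28 or less at the other. In the imprinted list *Ipw* was the one changed of 10 features evaluated in liver, and none was in ovary or uterus. *Kcnq1ot1* and *Peg13* differed by 0.39 or less in every tissue. None of the 16 features of nuclear and housekeeping RNAs was changed, and their medians were 0.03, −0.06 and −0.06 in liver, ovary and uterus. *Malat1* read −0.87 and −0.81 in liver, 0.54 and 0.62 in ovary and −0.01 and 0.22 in uterus. *Neat1*, the scaffold of paraspeckles, read 2.95 and 3.27 in liver, 1.74 and 1.59 in ovary and 2.29 and 2.63 in uterus. In the developmental list *Dlx1as* was the one changed. In the stress and immune list none of 5 features evaluated in liver was changed. In uterus 2 of 4 were lower, *Dubr* (not with normexp) and *Morrbid* (by a bound), against 0.773% of all features. A count among 4 features is too small to describe the list, and it was not tested.

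**Figure D5:**
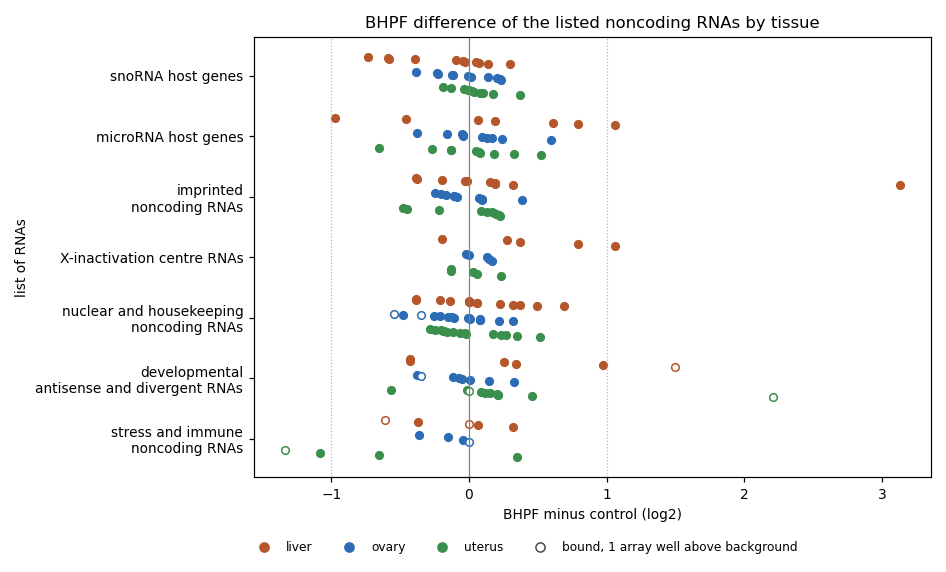
Each point is 1 feature of a listed RNA in 1 tissue, with BHPF minus control in log2 units on the horizontal axis, tissues in colour and open symbols for bounds. Dotted lines mark 2-fold. All 11 snoRNA host features lie between −0.73 and 0.37, and *Ipw* lies apart at 3.13.

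Where a gene had several features, their BHPF differences mostly lay close together. In liver 48 genes had at least 2 features measured on both arrays. The ratios lay within 0.5 of each other for 35 and were 1 or more apart for 4, *Speer5-ps1*, *Gm10845*, *Tug1* and *4931440P22Rik*. In ovary they lay within 0.5 for 54 of 59 and in uterus for 46 of 52. Over all NR_ features measured on both arrays, the quartiles of the ratio were −0.05 and 0.38 in liver. They were −0.12 and 0.14 in ovary and −0.08 and 0.23 in uterus. Unrelated features would therefore often lie within 0.5 as well, so these counts do not show that features of a gene move together. *Tug1*, an lncRNA of the nucleus and cytoplasm, differed by −0.39, 0.69 and −0.14 in liver at its 3 features and by 0.01 or less in ovary. *4933413J09Rik* had 1 feature called higher in liver (1.44 and 1.54 there) and another called higher in ovary (−3.20 and −2.82 there).

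Promoters were in the table for 417 of the 693 genes and for none of the pseudogenes. TATAAA was in 12.6% of the 462 promoters of NR_ genes, against 13.6% of all promoters, CCAAT in 39.4% against 37.4%, and GCGTG in 37.4% against 32.4%. For genes called higher in liver TATAAA was in 7 of 36 promoters, in ovary in 4 of 20 and in uterus in 5 of 31. AGGTCA was in 22.2% of the liver promoters, 10% of the ovary and 9.68% of the uterus promoters, against 16.3% of all. These shares rest on few promoters and were not tested.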

How the data were processed

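Liver, ovary and uterus RNA pools were labelled with 1 dye and hybridized to Agilent mouse arrays of which each spot is a probe (a feature). Agilent Feature Extraction (version 9.1 per the labels, 11.5.1.1 per the file headers) was run by the authors, who deposited each spot's intensity, background-subtracted, detrended and not normalized between arrays, on a linear scale. A second file deposited by the authors holds log2 values after a percentile shift in GeneSpring. Its columns headed control uterus and BHPF uterus each held the scanner values of the other array (99.1% of spots within 0.001 after a constant), so scanner values were used under their own labels.

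Here outlier spots were left out, spots of 1 probe averaged as log2 intensity, and the 75th percentile of each array subtracted. A feature dim on 1 array was set to the higher of its own value and the lowest level well above background there, which gives a bound. Tissue differences were fitted with limma 3.58.1 (lmFit, eBayes) in R 4.3.3 and adjusted by Benjamini-Hochberg, over features that passed the background criterion on 1 array or more. The calculation was checked on simulated data. Gene symbols and biotypes came from a RefSeq table of GRCm38.p6 through the accession. Coordinates of that build served to place microRNAs and promoters only, and none was given to a probe, as the array names another build. Background correction, scaling, filter, bound, members, unit, source and threshold were varied. The number of arrays limits the precision.

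Named genes were the matched members of 7 lists and, among features with a symbol and not saturated, the 5 largest excesses, rises and falls in each tissue, well above background on both arrays of the tissue. Features counted by a bound and other genes were chosen after their values were seen. The members and lists were chosen with earlier results of these data known.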

Additional observations from a re-analysis of the deposited data

Results flagged for a closer look

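There were 2 features changed at least 2-fold in opposite directions in different tissues, and the difference was not tested, since each tissue had 1 array per group. *1600029I14Rik* differed by −1.37 in ovary and by at least 2.28 in uterus (log2). A feature without a symbol differed by at least −1.11 in ovary and by 1.45 in uterus. No group had enough arrays for a test of outlying samples.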

How the results depend on the processing

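Counts of NR_ features changed at least 2-fold depended on how dim features were treated. The counts of 41 in liver, 9 in ovary and 16 in uterus became 138, 43 and 56 with no filter, 23, 5 and 5 with features well above background on both arrays, and 9, 0 and 7 at 4-fold. Quantile normalization gave 26 in liver, and own values in place of bounds gave 17 in ovary, of which 7 were higher, and 24 in uterus, of which 11 were higher. The authors' table as headed gave 5 in uterus, and with its uterus columns exchanged 16. Used as headed it turned the direction of *Sprr2g* (1.09), *Dubr* (1.08) and *Gm3219* (−1.60) in uterus, which is what exchanged columns give. The share of higher features among those changed moved from 95.1% to 76.7% in liver, from 66.7% to 57.1% in ovary and from 68.8% to 58.8% in uterus with the 50th percentile, and to 83.3% in ovary and 85.7% in uterus with normexp. The NR_ minus NM_ difference at like level lay between −0.90 and 1.30 points in liver, −0.66 and 0.36 in ovary and −2.31 and −0.13 in uterus, and so changed sign in liver and ovary. The uterus value of −0.13 is that without the features brighter in liver, chosen after seeing the data. Tissue calls became 127 in liver and 28 in uterus with the 50th percentile, and 13 in ovary and 21 in uterus over features well above background on all arrays. Leaving out 1 array at a time gave 57 to 79 in liver, 29 to 48 in ovary and 16 to 51 in uterus. The treatment term called 0 NR_ features under 9 alternatives, with 34 to 165 at an unadjusted p below 0.05. No paired analysis was possible because the groups share only 1 replicate number, other than the treatment term, in which tissue is the block. The cause of these shifts was not tested.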
